A study of Mus musculus with 6 samples.

Results

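The 47 genes described here encode the non-collagen proteins of the extracellular matrix that were named for comparison: proteoglycans, adhesive and matricellular glycoproteins, elastic fibre components, laminins and their basement membrane partners. They were chosen by name from the 56748 genes of each deposited table, and each of the 47 matched 1 gene identifier. They fall into 16 interstitial members, 18 elastic fibre members and 13 basement membrane members, a division made by known role and not by measured values. RNA was taken from mouse uterus on day 4 of pregnancy at 1600 h, and was sequenced from 3 libraries labelled Zip10 cKO (genotype Zip10 conditional knockout) and 3 libraries labelled Control (genotype WT). Zip10 is the protein of Slc39a10, a zinc importer of the plasma membrane. The design text calls the deletion uterine-specific and the tissue endometrium, while the sample labels say uterus. The sources used here give no Cre driver, deleted exons, strain or age. Whether the libraries stem from different animals is not stated, so that every p-value describes the spread among these 6 libraries alone, which may be technical.

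The interstitial matrix of the uterus is a mesh of collagen fibrils whose thickness and spacing are set by small leucine-rich proteoglycans, and to which cells attach through adhesive proteins such as fibronectin. Elastic fibres consist of an elastin core on a scaffold of fibrillin microfibrils, with fibulins and lysyl oxidases in their assembly. Latent TGF-beta binding proteins accompany them, and some of these hold the growth factor in the matrix. Basement membranes are sheets of laminin trimers, each built of an alpha, a beta and a gamma chain, joined to collagen IV by nidogens and heparan sulphate proteoglycans. They underlie uterine epithelia, line vessels and surround each smooth muscle cell.

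The libraries held 19643069 to 22809574 counts, and 16737 genes had enough counts to be tested, all 47 members among them, with 26 to 78982 counts per member and library. The targeted gene Slc39a10 was at 39.5, 72.5 and 79.8 CPM in Zip10 cKO libraries 1, 2 and 3, against 54.6, 70.4 and 66.2 CPM in control libraries 1, 2 and 3. CPM are counts scaled to an equal library size, here after correction for library composition by TMM (trimmed mean of M values). Its fold was 1.00 with a 95% interval from 0.678 to 1.49, so the gene total did not separate the groups. The total takes in every exon and does not check the genotype labels, so that Zip10 cKO stands below for the libraries so labelled. Library 1 of the Zip10 cKO group stood apart from the other 5: it lay at -1.48 on the first multidimensional scaling axis, against -0.08 to 0.74, and its mitochondrial transcripts made up 3.43% of counts, against 4.50% to 4.84%. Leaving out 1 library in turn moved the estimate of 35 of the 47 members by over 1.5 times, or turned it round, for at least 1 of the 6 libraries; for Zip10 cKO library 1 this held for 27 members, and for the others for 12 to 19. Lum, Ogn, Postn, Tnxb, Sparc, Thbs2, Mfap5, Fbln1, Lox, Lama5, Hspg2 and Hmcn2 did not move so far under any. In whole tissue, fewer cells of a type and less RNA per cell cannot be told apart.

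Levels per length, in TPM (counts divided by gene length and scaled to a fixed sum per library), ran from 0.238 to 1915 TPM among the members, as means over the 6 libraries. Sparc, a collagen-binding calcium-dependent glycoprotein, had the highest level, with 2210 ± 300.5 TPM in Zip10 cKO libraries and 1621 ± 348 TPM in controls (SD, n = 3 each). Decorin (Dcn), a proteoglycan that binds collagen fibrils and TGF-beta, followed with 1118 ± 146 and 885 ± 159 TPM, and Sparcl1, a relative of Sparc, with 614 ± 82.2 and 496 ± 84.1 TPM, in the same order of groups. At the other end, Lama1, the laminin chain of early embryonic basement membranes, averaged 0.267 TPM in Zip10 cKO libraries and 0.210 TPM in controls, and the latent TGF-beta binding protein Ltbp2 averaged 0.740 and 0.333 TPM. As means over the 6 libraries, 15 members exceeded 100 TPM and 5 were under 5 TPM. The median member level was 90.8 TPM among interstitial, 61.3 TPM among elastic fibre and 54.0 TPM among basement membrane members. Together the 47 members took 0.908%, 0.756% and 0.756% of all TPM in Zip10 cKO libraries 1, 2 and 3, against 0.541%, 0.673% and 0.712% in control libraries 1, 2 and 3. Zip10 cKO library 1 had the highest share and control library 1 the lowest, and the groups did not overlap.

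**Figure D1:**
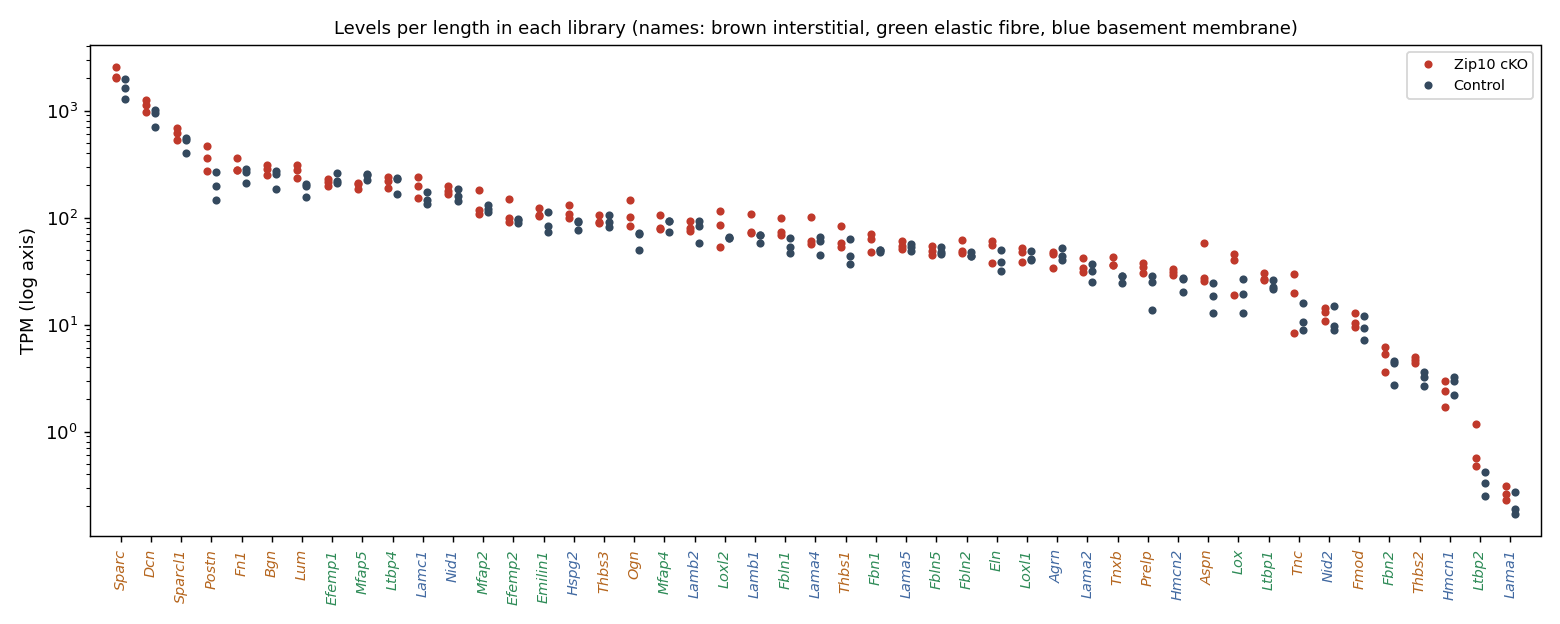
Level per length (TPM, log axis) of each of the 47 members in each of the 6 libraries, sorted by the mean over libraries, with Zip10 cKO libraries in red to the left of controls in blue and names coloured by class. Sparc and Dcn lead and Ltbp2 and Lama1 come last; for most members the red and blue points overlap.

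In the comparison of Zip10 cKO with control, the members' estimates were mostly higher in the Zip10 cKO libraries, and none passed the test across all genes. Of the 47 members, 42 had a higher and 5 a lower estimated level. Of those 5, Mfap4 and Fbln5 stood at 0.0161 and 0.00299 on the log2(TPM + 1) scale, where Hmcn1, one of the 42, stood at -0.195. By edgeR's quasi-likelihood test, Benjamini-Hochberg adjusted over all genes tested, 0 members and 0 genes in all (0%) had an adjusted p under 0.05, and the lowest adjusted p of a member was 0.715, for Hmcn2. At an unadjusted p under 0.05 there were 14 members, all 14 higher in Zip10 cKO, against 4.48% of all genes tested that were higher and 1.98% that were lower at this threshold. Their adjusted p was 0.747, except that of Hmcn2. The 3 Zip10 cKO libraries lay entirely above the 3 controls for 12 members and entirely below them for 1, against 6.93% and 5.78% of all genes tested. With 3 against 3, an exact two-sided permutation test cannot give a p below 0.1. The median log2 fold change, Zip10 cKO over control, was 0.26 over the members and -0.00 over all genes tested.

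Single libraries weighed on these counts. Zip10 cKO library 1 was the highest of the 6 libraries for 29 of the 47 members, 61.7% of them against 24.6% of all genes tested, and control library 1 was the lowest for 27, 57.4% of them against 21.3%. Among the 14 members at an unadjusted p under 0.05, Zip10 cKO library 1 was the highest for 11 and control library 1 the lowest for all 14. Without Zip10 cKO library 1, 9 members were at an unadjusted p under 0.05, all 9 higher, against 2.71% of all genes tested. Entirely above the controls lay 15, against 10.3%, while 2, Thbs3 and Mfap5, lay below. The share of all genes tested that lay below was 5.78% with all 6 libraries and was not taken without Zip10 cKO library 1. The median over the members was 0.21 without that library. By the quasi-likelihood test, Fn1, Lamc1, Lox and Sparc then had unadjusted p of 0.165, 0.157, 0.208 and 0.106. Those of Prelp and Aspn were 0.0728 and 0.0549, while the other members of the 14 stayed under 0.05. Without control library 1, again 9 members passed that threshold and were higher, against 2.39% of all genes tested. Without Zip10 cKO library 3, 21 members were higher at this threshold, against 5.15%, and 1 was lower, against 2.91%. Of the members, 25 then lay entirely above the controls, against 13.7%. The lowest adjusted p of a member by the quasi-likelihood test was then 0.609. Without control library 3, 21 lay entirely above the remaining controls, against 11.7%.

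**Figure D2:**
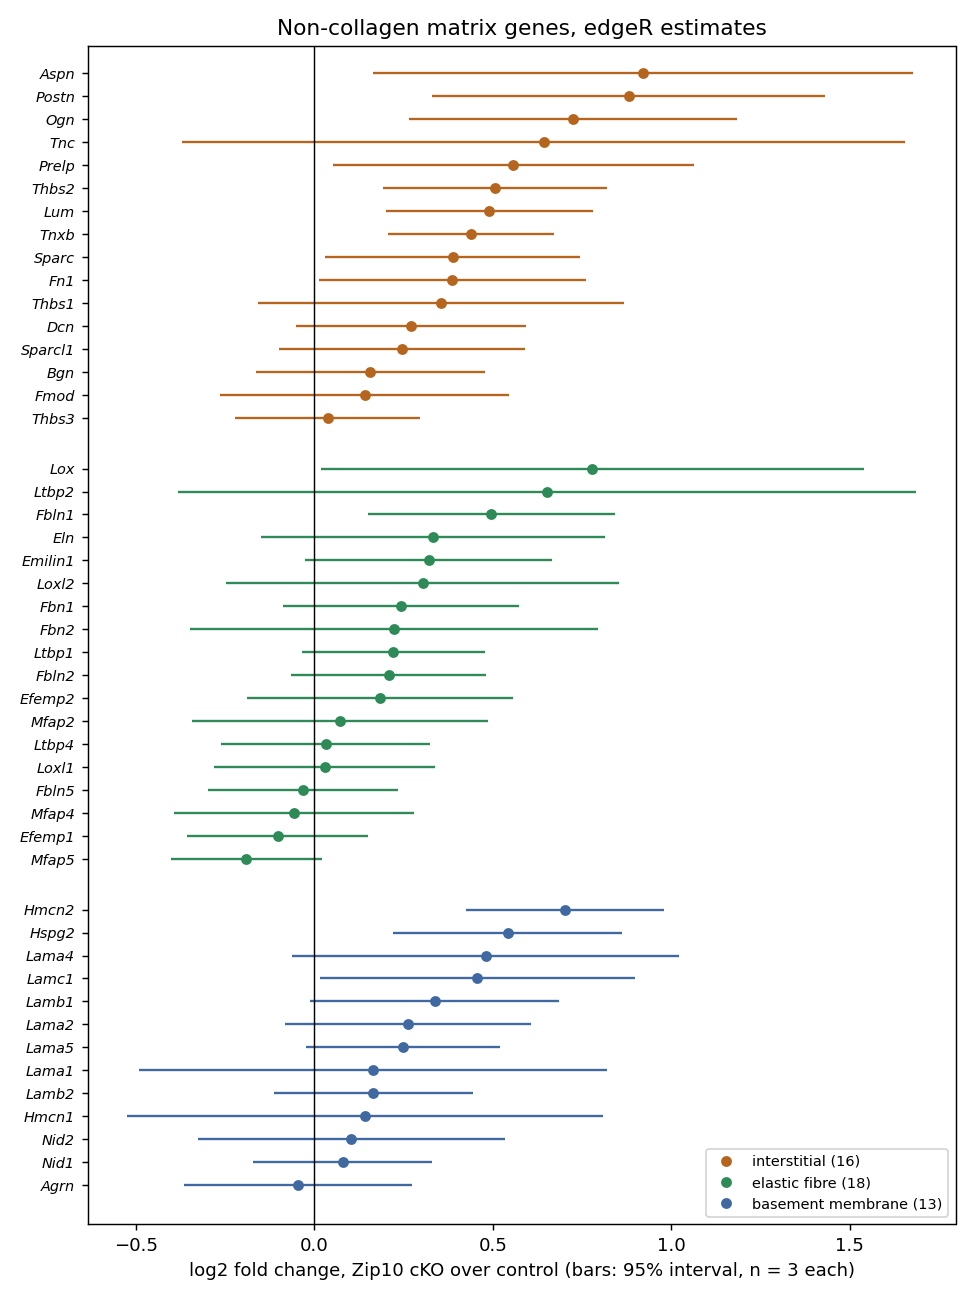
Log2 fold change of each member, Zip10 cKO over control, from edgeR's quasi-likelihood fit (points) with its 95% interval (bars, n = 3 libraries each), grouped by class and sorted within it. The intervals of 14 members lie above 0, 9 of them interstitial, and none lies below 0.

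Interstitial members were higher in Zip10 cKO for 16 of 16 estimates, with a median log2 fold change of 0.41. Of these, 9 were at an unadjusted p under 0.05, against 4.48% of all genes tested that were higher. Entirely above the controls lay 8, against 6.93%. Without Zip10 cKO library 1 the median was 0.28, 5 members were at that threshold, against 2.71%, and 8 lay entirely above the controls, against 10.3%. Among the 7 small leucine-rich proteoglycans, whose core proteins coat collagen fibrils, 4 were at that threshold and the median was 0.49. Dcn (ENSMUSG00000019929), the most abundant of them per length, had 1301, 1176 and 1465 CPM in Zip10 cKO libraries 1, 2 and 3, against 919, 1125 and 1223 CPM in control libraries 1, 2 and 3. Control library 1 was low, control library 3 lay above Zip10 cKO library 2, and the groups overlapped. Its log2 fold change was 0.27 ± 0.14 (SE), and 0.15 without control library 1. Lumican (Lum, ENSMUSG00000036446), which limits the width of collagen fibrils, had 509, 413 and 477 CPM in Zip10 cKO libraries and 291, 343 and 362 CPM in controls. All 3 Zip10 cKO libraries were above all 3 controls, and control library 1 was again the lowest. The log2 fold change of Lum was 0.49 ± 0.13 (SE), with an unadjusted p of 0.00428 by the quasi-likelihood method of edgeR, and 0.42 ± 0.14 without Zip10 cKO library 1.

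Ogn, Aspn and Prelp had the larger estimates of this family. In the gene order of the RefSeq annotation (GRCm38.p6), Ecm2, Aspn, Omd and Ogn are neighbours on chromosome 13, Dcn, Lum, Kera and Epyc on chromosome 10, and Optc, Prelp and Fmod on chromosome 1. The promoter windows of Aspn, Ogn, Prelp and Fmod are shown, as neighbouring members with unequal estimates. A window was used for 31 of the 47 members, so the shares below leave out the other 16. Each window runs from 250 bases before to 50 bases after the RefSeq start on GRCm38.p6, and is written 5′ to 3′ along the gene. Capitals mark the letters of 4 short motifs, each searched on either strand. They are the TATA box with the letters TATAAA, the GC box with the letters GGGCGG, the AP-1 site with the letters TGANTCA, and the CCAAT box. The windows are chr13:49544193-49544492 (+) for Aspn, chr13:49607765-49608064 (+) for Ogn, chr1:133921352-133921651 (-) for Prelp and chr1:134037004-134037303 (+) for Fmod.
Aspn: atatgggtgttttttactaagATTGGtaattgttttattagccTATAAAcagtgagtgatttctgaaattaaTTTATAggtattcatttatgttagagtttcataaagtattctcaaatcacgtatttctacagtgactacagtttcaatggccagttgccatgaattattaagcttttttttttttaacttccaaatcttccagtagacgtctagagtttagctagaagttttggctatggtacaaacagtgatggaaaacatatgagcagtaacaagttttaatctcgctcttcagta
Ogn: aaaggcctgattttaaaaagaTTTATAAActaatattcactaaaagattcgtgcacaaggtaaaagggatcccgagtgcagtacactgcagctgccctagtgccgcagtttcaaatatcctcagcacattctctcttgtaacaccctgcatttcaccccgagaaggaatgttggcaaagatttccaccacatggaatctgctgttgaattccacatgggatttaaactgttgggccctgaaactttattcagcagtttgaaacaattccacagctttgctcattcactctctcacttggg
Prelp: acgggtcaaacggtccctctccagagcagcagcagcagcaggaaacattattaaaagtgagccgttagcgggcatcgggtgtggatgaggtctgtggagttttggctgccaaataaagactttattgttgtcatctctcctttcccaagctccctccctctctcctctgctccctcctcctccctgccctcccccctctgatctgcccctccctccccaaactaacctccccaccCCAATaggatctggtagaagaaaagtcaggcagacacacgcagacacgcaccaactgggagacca
Fmod: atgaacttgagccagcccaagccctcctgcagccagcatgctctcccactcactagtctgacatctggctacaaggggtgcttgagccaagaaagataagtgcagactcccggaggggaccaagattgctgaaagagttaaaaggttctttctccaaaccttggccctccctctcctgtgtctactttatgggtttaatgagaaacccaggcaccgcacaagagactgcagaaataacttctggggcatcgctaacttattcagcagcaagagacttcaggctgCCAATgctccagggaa
Counted from 1 at the first base of a window, Aspn holds TATAAA letters at 44 and 73 and CCAAT letters at 22, Ogn holds 2 overlapping TATAAA matches at 22 and 24, Prelp holds CCAAT at 236 and Fmod at 285. Among the 42 windows of those 31 members, 14.3% held TATAAA, 57.1% GGGCGG, 7.1% TGANTCA and 33.3% CCAAT, against 13.6%, 35.7%, 7.8% and 37.4% of all 32851 windows; the median GC content was 60.3% in the members' windows and 52.7% in all windows. These are counts of letters and not of bound sites.

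Osteoglycin (Ogn, ENSMUSG00000021390), which takes part in fibril assembly, had 257, 188 and 150.2 CPM in Zip10 cKO libraries 1, 2 and 3, against 99.8, 128 and 133 CPM in control libraries 1, 2 and 3. The groups did not overlap, although Zip10 cKO library 3 stood only a little above control library 3. The estimate was a log2 fold change of 0.72 ± 0.20 (SE), with an unadjusted p of 0.00656, and 0.49 ± 0.16 without Zip10 cKO library 1. Asporin (Aspn, ENSMUSG00000021388), which binds collagen and TGF-beta, had 89.6, 42.7 and 43.2 CPM in Zip10 cKO libraries and 22.8, 29.8 and 40.1 CPM in controls. Zip10 cKO library 1 was more than 2 times any other library, and the other Zip10 cKO libraries were just above control library 3. Its log2 fold change of 0.92 ± 0.33 (SE), the largest among the members, had an unadjusted p of 0.0230 and became 0.47 ± 0.21 without Zip10 cKO library 1, a change of more than 1.5 times. Prelp (ENSMUSG00000041577), a heparan sulphate-binding protein that links basement membrane to collagen, had 87.7, 81.9 and 96.4 CPM in Zip10 cKO libraries and 39.1, 65.7 and 76.1 CPM in controls. The groups did not overlap, and control library 1 stood well below the other 5. On the log2 scale the difference was 0.56 ± 0.22 (SE), with an unadjusted p of 0.0348, and 0.56 ± 0.26 without Zip10 cKO library 1, but 0.31 without control library 1.

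Beside these, biglycan (Bgn), the closest relative of Dcn, and fibromodulin (Fmod), which competes with Lum for collagen, had log2 fold changes of 0.16 ± 0.14 and 0.14 ± 0.18 (SE), and their groups overlapped. Without control library 1 these were 0.02 and -0.00. Bgn ranged over 400.2 to 455 CPM in Zip10 cKO libraries and 309.6 to 439 CPM in controls, and Fmod over 21.9 to 27.4 and 17.5 to 27.1 CPM. Fmod thus stood at 0.14 beside its neighbour Prelp at 0.56, and Dcn at 0.27 beside Lum at 0.49. As shares of the family's summed TPM, Dcn made up 59.9% ± 3.35 in Zip10 cKO and 62.2% ± 0.287 in control libraries, Bgn 15.1% ± 0.613 and 16.6% ± 0.311, Lum 14.7% ± 0.578 and 13.2% ± 0.502, and Ogn 5.96% ± 1.57 and 4.51% ± 0.111 (SD, n = 3 each). The order Dcn, then Bgn and Lum, then Ogn was thus that of both group means; Bgn and Lum were within 1 SD of each other in Zip10 cKO. Reads of Aspn and Ogn also lie within Cenpp, a gene on the opposite strand with a mean of 38.7 counts per library, whose exons cover 0.3% of those of Aspn and 0% of those of Ogn.

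The 9 adhesive and matricellular members, secreted glycoproteins through which cells attach to or detach from the matrix, had a median of 0.39 in log2 fold change. Of these 9, 5 were higher at an unadjusted p under 0.05, against 4.48% of all genes tested. Fibronectin (Fn1, ENSMUSG00000026193), the main ligand of the alpha5 and alphaV integrins, had 1519, 1156 and 1104 CPM in Zip10 cKO libraries 1, 2 and 3, against 801, 1075 and 1016 CPM in control libraries 1, 2 and 3. The groups touched closely without overlapping, with Zip10 cKO library 1 high and control library 1 low. The fitted log2 fold change was 0.39 ± 0.16 (SE), with an unadjusted p of 0.0446, and 0.23 ± 0.15 without Zip10 cKO library 1, a change of more than 1.5 times. Periostin (Postn, ENSMUSG00000027750), a matricellular protein that promotes the activation of lysyl oxidase, had 781, 655 and 467 CPM in Zip10 cKO libraries and 258, 331 and 445 CPM in controls. Each group spread widely, and the lowest Zip10 cKO library lay just above the highest control. This gave a log2 fold change of 0.88 ± 0.24 (SE), with an unadjusted p of 0.00615, and 0.70 ± 0.24 without Zip10 cKO library 1.

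Tenascin X (Tnxb, ENSMUSG00000033327), which is needed for the strength of connective tissue, had the smallest unadjusted p of this family. It was at 386, 344 and 338 CPM in Zip10 cKO libraries 1, 2 and 3, against 251, 267 and 269.7 CPM in control libraries 1, 2 and 3. Both groups were tight and did not overlap. Its log2 fold change was 0.44 ± 0.10 (SE), with an unadjusted p of 0.00223, and 0.38 ± 0.11 without Zip10 cKO library 1. Sparc (ENSMUSG00000018593) had 3754, 3195 and 3046 CPM in Zip10 cKO libraries and 2129, 2463 and 3049 CPM in controls. Zip10 cKO library 3 and control library 3 were level, so the groups overlapped. The estimate was a log2 fold change of 0.39 ± 0.16 (SE), with an unadjusted p of 0.0367, and 0.29 ± 0.16 without Zip10 cKO library 1. Thrombospondin 2 (Thbs2, ENSMUSG00000023885), an inhibitor of angiogenesis that also affects collagen fibril shape, had 20.7, 21.1 and 19.0 CPM in Zip10 cKO libraries and 12.6, 14.1 and 16.1 CPM in controls. All Zip10 cKO libraries were above all controls. On the log2 scale the difference was 0.51 ± 0.14 (SE), with an unadjusted p of 0.00564, and 0.49 ± 0.16 without Zip10 cKO library 1.

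The other adhesive members overlapped between groups. Tenascin C (Tnc), an anti-adhesive protein of remodelling tissue, ranged from 42.6 to 148 CPM in Zip10 cKO libraries and from 46.0 to 83.1 CPM in controls, with the lowest library of all in the Zip10 cKO group and a log2 fold change of 0.64 ± 0.43 (SE). The estimate of Tnc was 0.23 ± 0.46 without Zip10 cKO library 1, with an unadjusted p of 0.643. It was 1.00 without Zip10 cKO library 3, when the groups did not overlap and the unadjusted p was 0.00545. Its adjusted p by the quasi-likelihood test was then 0.609. Thrombospondin 1 (Thbs1), an activator of latent TGF-beta, ranged over 221 to 349 CPM in Zip10 cKO and 163 to 273 CPM in control, and Sparcl1 over 1009 to 1377 and 856 to 1109 CPM. The log2 fold changes of 0.35 for Thbs1 and 0.24 for Sparcl1 ranged from 0.14 to 0.56 and from 0.12 to 0.35 when any 1 library was left out. Thbs3 had the smallest estimate of the interstitial members, 0.04 ± 0.11, at 114 to 142 CPM in Zip10 cKO and 117 to 124 CPM in control. Without Zip10 cKO library 1 its estimate was -0.08 and the remaining Zip10 cKO libraries lay below all controls. Its exons share 6.6% of their length with Mtx1 on the opposite strand, which averaged 665 counts.

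**Figure D3:**
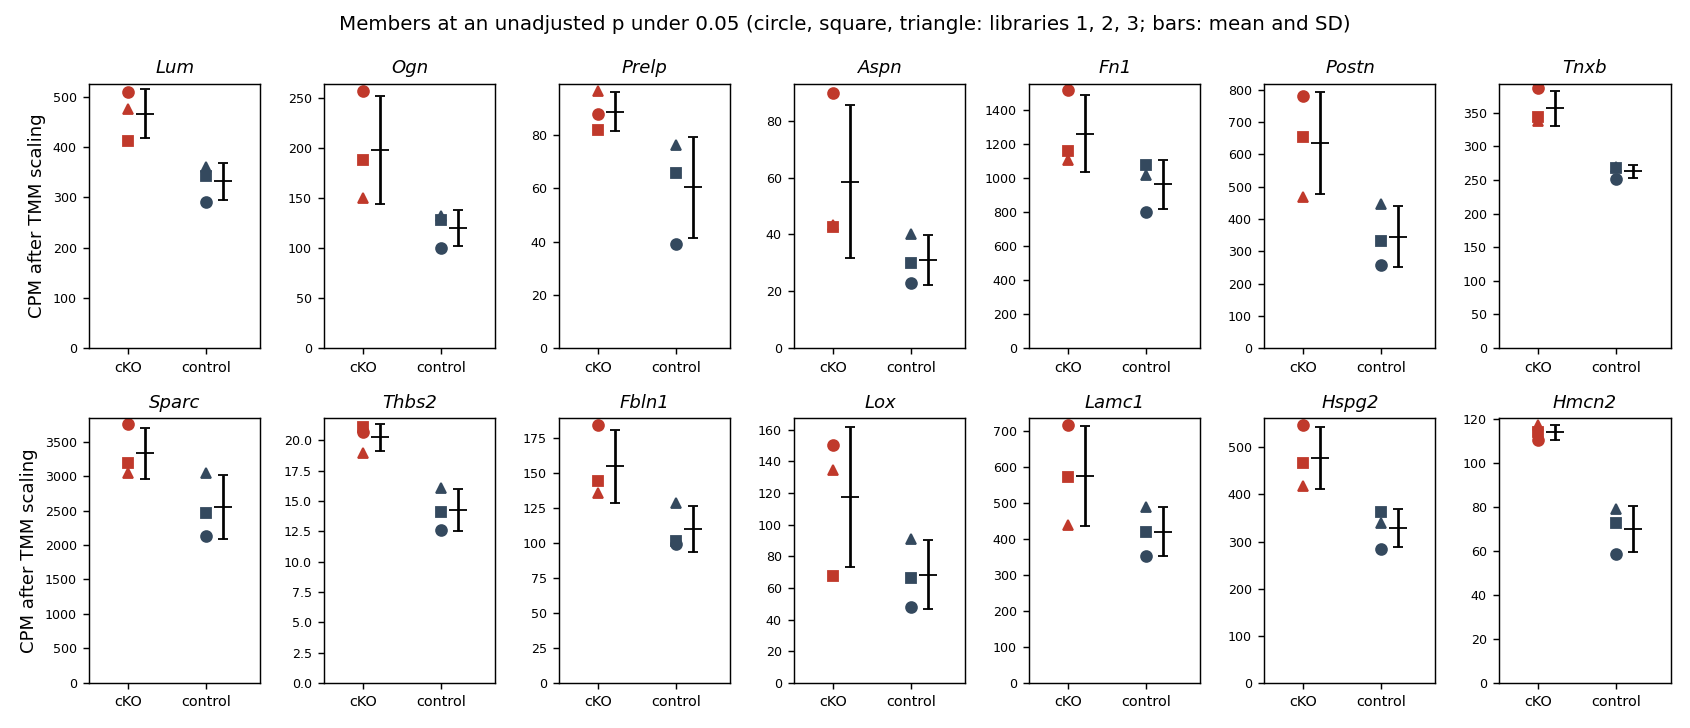
CPM after TMM scaling of the 14 members at an unadjusted p under 0.05 in each library (circle, square and triangle for libraries 1, 2 and 3; bars, mean and SD of n = 3), Zip10 cKO left and control right, each axis from 0. The control circle is the lowest point in all 14 panels, and the Zip10 cKO circle is the highest point in 11.

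Of the 18 elastic fibre estimates 14 were higher and 4 lower in Zip10 cKO, with a median log2 fold change of 0.22. Higher at an unadjusted p under 0.05 were 2 members, against 4.48% of all genes tested. Of the 18, 1 lay entirely above the controls, against 6.93%, and 1 entirely below, against 5.78%, both near these shares. Without Zip10 cKO library 1 the median was 0.05, 7 estimates were lower and 1 member was at that threshold, against 2.71%. With Zip10 cKO library 3 left out instead, the median was 0.31, above the 0.26 of the basement membrane members. Elastin itself (Eln), the core of the fibre, ranged from 91.0 to 154 CPM in Zip10 cKO libraries and from 84.0 to 122 CPM in controls. Its scaffold genes Fbn1 and Fbn2, the fibrillins, ranged over 349 to 503 and 24.4 to 45.5 CPM in Zip10 cKO, against 367 to 386 and 24.4 to 36.7 CPM in control. The groups of all 3 overlapped, and their log2 fold changes were 0.33 ± 0.21, 0.24 ± 0.14 and 0.22 ± 0.25 (SE). They were 0.29, 0.14 and 0.06 for Eln, Fbn1 and Fbn2 without Zip10 cKO library 1, with unadjusted p of 0.277, 0.370 and 0.832. With Zip10 cKO library 3 left out instead they were 0.52, 0.39 and 0.45, with no overlap and unadjusted p of 0.0174, 0.00521 and 0.0410. Their adjusted p by the quasi-likelihood test was then 0.609 for Eln and Fbn1 and 0.611 for Fbn2. Eln was at 0.16 without Zip10 cKO library 2, and Fbn2 at 0.05 without control library 1. Of the exon length of Fbn1, 20.1% is shared with Gm9913 on the opposite strand, which averaged 15.0 counts.

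Mfap5 (ENSMUSG00000030116), a small microfibril-associated glycoprotein, was the member whose Zip10 cKO libraries lay below all controls. It had 127, 120.3 and 136 CPM in Zip10 cKO libraries 1, 2 and 3, against 146, 145 and 147 CPM in control libraries 1, 2 and 3. The controls were nearly level, and the highest Zip10 cKO library stood below the lowest of them. The fitted log2 fold change was -0.19 ± 0.09 (SE), with an unadjusted p of 0.0711, and -0.19 ± 0.11 without Zip10 cKO library 1. Mfap2 and Mfap4 had estimates of 0.07 ± 0.18 and -0.06 ± 0.15 and overlapped between groups. They were at 70.4 to 114 and 89.7 to 115 CPM in Zip10 cKO and 75.4 to 95.2 and 85.1 to 117 CPM in control. Emilin1 (ENSMUSG00000029163), a glycoprotein at the elastin and microfibril interface, had 235, 203 and 177 CPM in Zip10 cKO libraries and 146, 151 and 196 CPM in controls. Control library 3 lay above Zip10 cKO library 3, so the groups overlapped. This gave a log2 fold change of 0.32 ± 0.15 (SE), with an unadjusted p of 0.0661, and 0.21 ± 0.15 without Zip10 cKO library 1.

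Among the 5 fibulins, Fbln1 (ENSMUSG00000006369), which binds fibronectin and elastin, was the only elastic fibre member to lie entirely above the controls. It had 184, 144 and 136 CPM in Zip10 cKO libraries 1, 2 and 3, against 99.4, 101 and 129 CPM in control libraries 1, 2 and 3. Zip10 cKO library 1 was the highest, and the gap between the groups was small. Its log2 fold change was 0.50 ± 0.15 (SE), with an unadjusted p of 0.0105, and 0.35 ± 0.14 without Zip10 cKO library 1. Efemp1 (ENSMUSG00000020467), fibulin 3, the most abundant fibulin per length, had 208, 223 and 226 CPM in Zip10 cKO libraries and 230.4, 263 and 212 CPM in controls. The groups overlapped, with the controls on average higher. The estimate was a log2 fold change of -0.10 ± 0.11 (SE). Fbln5, which binds Loxl1 and tropoelastin, had an estimate of -0.03 ± 0.12, and Fbln2, found in vessel walls, and Efemp2, needed for elastin cross-linking, had 0.21 ± 0.12 and 0.18 ± 0.16. The estimates of Fbln5, Fbln2 and Efemp2 were 0.06, 0.10 and -0.03 without Zip10 cKO library 1. With Zip10 cKO library 3 left out instead, that of Efemp2 was 0.32 and that of Fbln2 0.31. For Fbln2 the unadjusted p was then 0.0224 and the adjusted p 0.609 by the quasi-likelihood test. In summed TPM of the fibulins, Fbln1 took 15.8% ± 1.99 in Zip10 cKO and 11.6% ± 1.94 in control, and Efemp1 42.3% ± 5.71 and 48.9% ± 3.34 (SD, n = 3 each).

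Some of the latent TGF-beta binding proteins fix the inactive growth factor to fibrillin microfibrils. Ltbp1 (ENSMUSG00000001870) had 93.1, 112 and 95.8 CPM in Zip10 cKO libraries 1, 2 and 3, against 80.7, 81.9 and 95.0 CPM in control libraries 1, 2 and 3. Control library 3 reached the level of the lower Zip10 cKO libraries, and the groups overlapped. On the log2 scale the difference was 0.22 ± 0.11 (SE), with an unadjusted p of 0.0809, and 0.13 without Zip10 cKO library 2. Ltbp4 (ENSMUSG00000040488), the most abundant of the 3 per length, had 676, 600.0 and 609 CPM in Zip10 cKO libraries and 665, 661 and 518 CPM in controls. Neither group stood above the other, and its log2 fold change was 0.03 ± 0.13 (SE), with a 95% interval from -0.26 to 0.32. Ltbp2, at 1.24 to 4.42 CPM in Zip10 cKO and 1.36 to 2.13 CPM in control, had 0.65 ± 0.45, which was 0.05 ± 0.37 without Zip10 cKO library 1.

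Lysyl oxidases cross-link collagen and elastin. Lox (ENSMUSG00000024529) had 150.4, 67.2 and 134 CPM in Zip10 cKO libraries 1, 2 and 3, against 48.0, 66.1 and 91.1 CPM in control libraries 1, 2 and 3. Zip10 cKO libraries 1 and 3 were above every control, while library 2 was level with control library 2. The fitted log2 fold change was 0.78 ± 0.33 (SE), with an unadjusted p of 0.0459, and 0.56 ± 0.39 without Zip10 cKO library 1. Loxl2 (ENSMUSG00000034205), which also acts on basement membrane collagen, had 434, 341 and 203 CPM in Zip10 cKO libraries and 275, 258 and 259 CPM in controls. The controls were level and the Zip10 cKO libraries lay on both sides of them. This gave a log2 fold change of 0.30 ± 0.24 (SE), and 0.04 ± 0.20 without Zip10 cKO library 1. It was 0.55, with no overlap and an unadjusted p of 0.00334, without Zip10 cKO library 3. The adjusted p by the quasi-likelihood test was then 0.609. Loxl1, which acts on elastin, had 0.03 ± 0.14, with 90.3 to 119.7 CPM in Zip10 cKO and 94.9 to 118 CPM in control.

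Basement membrane members were higher in Zip10 cKO for 12 of 13 estimates, with a median log2 fold change of 0.25. Higher at an unadjusted p under 0.05 were 3, against 4.48% of all genes tested, and 3 lay entirely above the controls, against 6.93%. Without Zip10 cKO library 1 the median was 0.21 and 13 of 13 estimates were higher. Of the members, 3 were then at that threshold, against 2.71%, and 5 lay entirely above the controls, against 10.3%. The median was 0.14 without control library 1. The 7 laminin chains all had higher estimates, from 0.16 to 0.48. Lamc1 (ENSMUSG00000026478), the gamma chain shared by most laminin trimers, had 717, 573 and 439 CPM in Zip10 cKO libraries 1, 2 and 3, against 351, 421 and 488 CPM in control libraries 1, 2 and 3. Control library 3 lay above Zip10 cKO library 3, so the groups overlapped. Its log2 fold change was 0.46 ± 0.19 (SE), with an unadjusted p of 0.0442, and 0.27 ± 0.17 without Zip10 cKO library 1, a change of more than 1.5 times. Lamb1, a beta chain of many laminin trimers, ranged over 300.1 to 434 CPM in Zip10 cKO and 254 to 288 CPM in control, without overlap, with an estimate of 0.34 ± 0.15 and an unadjusted p of 0.0568, and 0.15 ± 0.12 without Zip10 cKO library 1. Lamb2 had 0.16 ± 0.12, with overlap, and 0.05 without control library 1.

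The alpha chain sets where a laminin is found. Lama4, the chain of vessels and smooth muscle, had 136 to 248 CPM in Zip10 cKO and 102 to 149.7 CPM in control, with a log2 fold change of 0.48 ± 0.23 (SE) that was 0.21 ± 0.19 without Zip10 cKO library 1 and 0.31 without control library 1. Lama2, the chain of muscle and nerve, had 126 to 162 and 96.6 to 136 CPM, and 0.26 ± 0.15, which was 0.14 ± 0.15 without Zip10 cKO library 1 and 0.14 without control library 1. Lama5, the chain of adult epithelia and vessels, had 138 to 170.3 and 120.2 to 142 CPM, and 0.25 ± 0.12, which without Zip10 cKO library 1 was 0.34 ± 0.12 with no overlap; on the log2(TPM + 1) scale its difference was 0.06. In levels per length the alpha chains summed to 193, 153 and 144 TPM in Zip10 cKO libraries 1, 2 and 3, against 119, 156 and 149 TPM in control libraries 1, 2 and 3. The beta chains summed to 182, 153 and 167 TPM against 116, 162 and 152 TPM, and Lamc1 alone to 240, 199 and 152 TPM against 133, 145 and 174 TPM. All 3 chain types overlapped between groups on this scale, with Zip10 cKO library 1 high and control library 1 low. Lama4 made up 43.5% ± 7.31 of the alpha chains in Zip10 cKO and 40.1% ± 2.21 in control, Lama5 34.5% ± 7.33 and 37.7% ± 3.42, and Lama2 21.8% ± 1.63 and 22.0% ± 1.31 (SD, n = 3 each).

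Nidogens bridge laminin and collagen IV. Nid1 (ENSMUSG00000005397), the more abundant, had 801, 812 and 718 CPM in Zip10 cKO libraries 1, 2 and 3, against 704, 801 and 702 CPM in control libraries 1, 2 and 3. The groups covered much the same range. The estimate was a log2 fold change of 0.08 ± 0.11 (SE), with a 95% interval from -0.17 to 0.33, and that of Nid2 was 0.10 ± 0.19, which was 0.26 without Zip10 cKO library 3 and 0.29 without control library 2. Perlecan (Hspg2, ENSMUSG00000028763), the large heparan sulphate proteoglycan that stores growth factors in basement membranes, had 548, 467 and 419 CPM in Zip10 cKO libraries and 284, 363 and 339 CPM in controls. All 3 Zip10 cKO libraries were above all 3 controls. On the log2 scale the difference was 0.54 ± 0.14 (SE), with an unadjusted p of 0.00424, and 0.43 ± 0.14 without Zip10 cKO library 1. Agrin (Agrn), the other heparan sulphate proteoglycan, had -0.05 ± 0.14, at 106 to 141 CPM in Zip10 cKO and 117 to 148 CPM in control.

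Hmcn2 (ENSMUSG00000055632), a hemicentin, a very large matrix protein whose relative in the nematode Caenorhabditis elegans anchors tissues to each other, had the smallest unadjusted p of all members. Its promoter window, shown because of that place, lies at chr2:31314082-31314381 (+) on GRCm38.p6 and holds TGANTCA letters, in capitals, at position 150.
Hmcn2: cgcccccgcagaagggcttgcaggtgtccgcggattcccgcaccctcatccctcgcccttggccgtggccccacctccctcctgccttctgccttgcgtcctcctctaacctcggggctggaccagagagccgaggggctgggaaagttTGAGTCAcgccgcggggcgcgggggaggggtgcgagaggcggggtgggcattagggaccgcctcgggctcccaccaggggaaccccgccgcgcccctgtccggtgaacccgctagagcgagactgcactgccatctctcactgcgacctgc
The window has a GC content of 70.7%. Hmcn2 had 111, 114 and 117 CPM in Zip10 cKO libraries 1, 2 and 3, against 58.5, 72.6 and 79.2 CPM in control libraries 1, 2 and 3. The Zip10 cKO libraries were nearly level and far above every control. The fitted log2 fold change was 0.70 ± 0.12 (SE), with an unadjusted p of 0.000325 and, by edgeR, an adjusted p of 0.715, and 0.72 ± 0.14 without Zip10 cKO library 1. Other tests called it: the adjusted p was 0.00248 in DESeq2, which called 0.208% of the genes it tested, 0.00273 in edgeR's likelihood ratio test, which called 0.179%, and 0.0269 in the quasi-likelihood test with no filter on low counts, which called 0.0518%. Of the other members, DESeq2 called Tnxb, with an adjusted p of 0.0449. Hmcn1, the other hemicentin, had 7.41 to 14.9 CPM in Zip10 cKO and 7.47 to 13.4 CPM in control, and a log2 fold change of 0.14 ± 0.29.

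The size of the difference depended on the unit for several members, Hmcn2 among them. On the log2(TPM + 1) scale, which understates the change of low genes, Hmcn2 differed between groups by 0.32, against 0.70 from the counts. TPM divide by the effective length that RSEM assigns to a gene, and that length differed too. Effective length is the mean length of the transcripts to which a library's reads were assigned, less the part in which a fragment cannot start, and it moves with the estimated mix of isoforms. That of Hmcn2 was 5161, 4693 and 4685 bases in Zip10 cKO libraries 1, 2 and 3, against 3421, 3526 and 3736 bases in control libraries 1, 2 and 3, so every Zip10 cKO library had the longer estimate and the mean was 36.1% longer. Hspg2 showed the same order, with 5644, 5485 and 5624 bases in Zip10 cKO and 4389, 5147 and 4723 bases in control, a mean 17.5% longer, and a difference of 0.37 on the log2(TPM + 1) scale against 0.54 from the counts. Lama5 had a mean 19.3% longer, with overlap, and 0.06 against 0.25. In all, 11 of 47 members had a longer effective length in every Zip10 cKO library, 3 interstitial, 3 elastic fibre and 5 basement membrane, against 4.8% of all genes tested, and 2, Fbn2 and Ltbp2, a shorter one, against 5.37%. The other 9 longer members were Fn1, Postn, Tnxb, Mfap5, Fbln5, Efemp1, Lama2, Lama4 and Agrn. The median difference was 0.64% over the members and -0.04% over all genes tested. Mfap5, with an effective length 11.2% longer in Zip10 cKO, had 206, 187 and 212 TPM in Zip10 cKO libraries, against 225, 257 and 252 TPM in controls. Its difference on the log2(TPM + 1) scale was -0.28, against -0.19 from the counts.

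**Figure D4:**
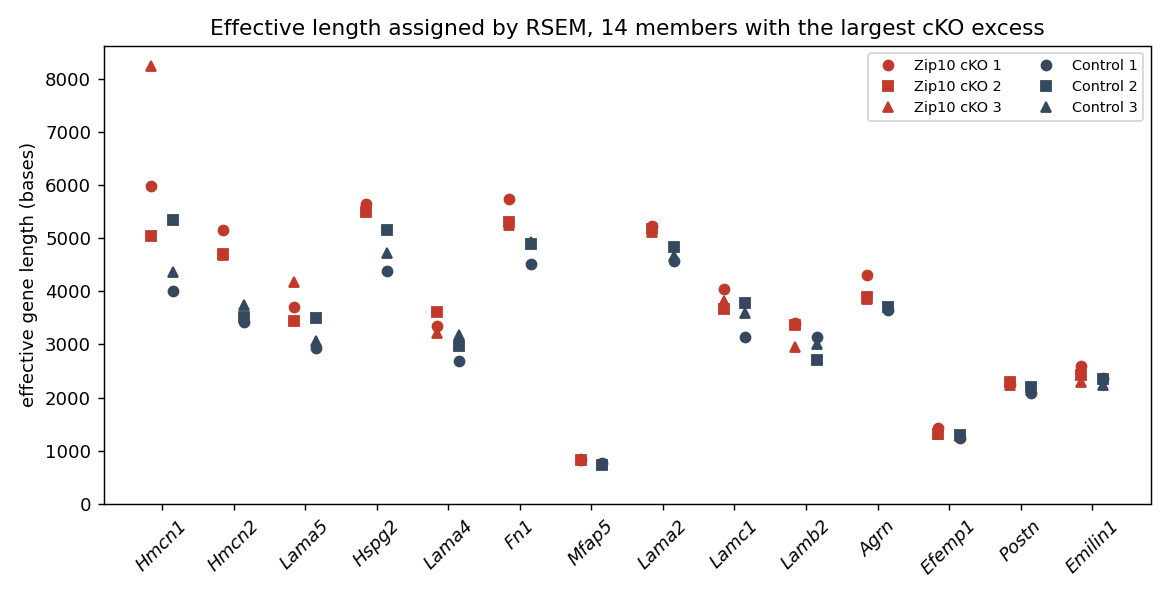
Effective gene length in bases assigned by RSEM in each library, for the 14 members with the largest Zip10 cKO excess in percent, Zip10 cKO (red) left of control (blue), axis from 0. Hmcn2 and Hspg2 are longer in every Zip10 cKO library, while for Hmcn1 the groups overlap.

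The 3 classes were also set side by side within libraries. Each member's log2 CPM was centred on its mean over the 6 libraries and averaged over a class. Interstitial members stood at 0.46, 0.17 and 0.03 in Zip10 cKO libraries 1, 2 and 3, against -0.45, -0.16 and -0.05 in control libraries 1, 2 and 3. Elastic fibre members stood at 0.32, 0.05 and -0.09 against -0.16, -0.09 and -0.03, and basement membrane members at 0.19, 0.17 and 0.06 against -0.33, -0.00 and -0.08. The groups did not overlap for interstitial and basement membrane members and overlapped for elastic fibre members. The interstitial mean minus the elastic fibre mean was 0.14, 0.12 and 0.12 in Zip10 cKO libraries and -0.29, -0.07 and -0.02 in controls, a difference between groups of 0.25 that ranged from 0.17 to 0.31 with each library left out in turn. Every Zip10 cKO library was thus above every control in this contrast. The interstitial mean minus the basement membrane mean differed between groups by 0.16, and by 0.07 without Zip10 cKO library 1. The elastic fibre mean minus the basement membrane mean differed by -0.09, and by -0.18 without Zip10 cKO library 1, -0.16 without control library 2, -0.03 without control library 1, -0.05 without Zip10 cKO library 2 and -0.04 without Zip10 cKO library 3. No test was made of these contrasts, since the members were chosen with results known.

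**Figure D5:**
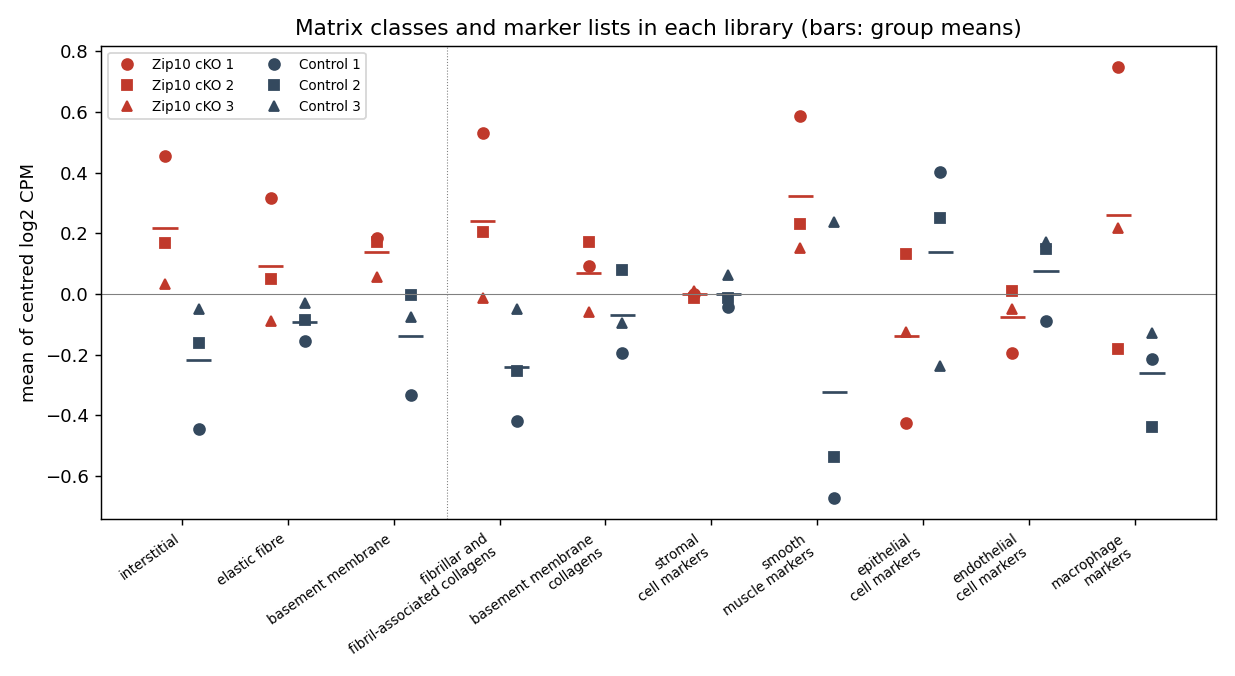
Mean of centred log2 CPM of the 3 member classes (left of the dotted line) and of collagen and cell marker lists (right of it) in each library, Zip10 cKO (red) left of control (blue), with bars at group means. Zip10 cKO library 1 is highest and control library 1 lowest for the interstitial members, the fibrillar collagens and the smooth muscle markers, and stromal markers stay close to 0 in all 6 libraries.

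The collagens with which the members assemble were set beside them. Of 12 fibrillar and fibril-associated collagen genes, 12 had higher estimates in Zip10 cKO, with a median log2 fold change of 0.48. Higher at an unadjusted p under 0.05 were 9 of them, against 4.48% of all genes tested. Col3a1, Col6a3 and Col1a1 had 0.49 ± 0.14, 0.80 ± 0.26 and 0.48 ± 0.15 (SE). The median was 0.31 without Zip10 cKO library 1, with 6 of the 12 at that threshold, against 2.71% of all genes tested. Of 9 basement membrane collagen genes 7 had higher estimates and 1, Col4a5, was at that threshold, with a median of 0.21. Beside these, the interstitial members had a median of 0.41, the basement membrane members 0.25 and the elastic fibre members 0.22. The last was the closest to the basement membrane collagens. Leaving out Zip10 cKO library 1, the median was 0.14 for the basement membrane collagens. It was then 0.28 for interstitial, 0.21 for basement membrane and 0.05 for elastic fibre members. Of 9 further small leucine-rich proteoglycan genes 5 were tested, all 5 with higher estimates and 2, Optc and Ecm2, at that threshold, with a median of 0.46. Of 25 further matrix glycoprotein genes 22 were tested, and 3 were higher at that threshold, Matn2, Loxl4 and Npnt, with a median of 0.11, or 0.00 and 1 gene without Zip10 cKO library 1.

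Receptors that bind the members, among them integrins, discoidin domain receptors and syndecans, had higher estimates for 19 of 20 genes and a median of 0.21. Of these 20, 8 were higher at an unadjusted p under 0.05, against 4.48% of all genes tested. Itgav, the alphaV integrin chain, Ddr2, a receptor for fibrillar collagen, and Itga1, a collagen and laminin receptor chain, had 0.46 ± 0.11, 0.41 ± 0.12 and 0.57 ± 0.17 (SE). Leaving out Zip10 cKO library 1, 4 of these receptor genes were at that threshold, against 2.71% of all genes tested, and the median was 0.14. Of 12 TGF-beta ligands, receptors and targets, 11 had higher estimates and 4 were higher at that threshold, with a median of 0.27; Tgfbr2, a receptor chain, and Smad7, an inhibitor induced by the pathway, had 0.51 ± 0.19 and 0.43 ± 0.16. Without that library none of the 12 was at the threshold, and the median was 0.16. None of these genes passed the adjusted threshold of 0.05 by the quasi-likelihood method.

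Markers of the cells that make or border these matrices were given for the same libraries. For comparison, 4.48% of all genes tested were higher and 1.98% lower at an unadjusted p under 0.05. Smooth muscle markers, from cells that secrete elastin and laminins, had higher estimates for 10 of 10 genes, with a median of 0.55 and 2 genes, Synm and Myh11, higher at an unadjusted p under 0.05. Their summed level was 15166, 11182 and 10899 CPM in Zip10 cKO libraries 1, 2 and 3, against 6856, 6337 and 11590 CPM in control libraries 1, 2 and 3, so the groups overlapped. No marker of any of these lists was at 0 in any library. Stromal markers had a median of -0.01, 6 of 12 higher, with Fap higher and Hand2 lower at that threshold, and summed to 3634 to 3707 CPM in Zip10 cKO and 3675 to 3976 CPM in control. Epithelial markers had lower estimates for 10 of 11 genes, a median of -0.33, Krt7 higher and 3 genes lower at that threshold, and summed levels of 807 to 1224 and 967 to 1476 CPM. Macrophage markers had higher estimates for 10 of 10 genes, a median of 0.60, 3 genes higher at that threshold, and summed to 439.9 to 902 CPM in Zip10 cKO and 388 to 564 CPM in control. The medians without Zip10 cKO library 1 were 0.40 for smooth muscle, -0.06 for stromal, -0.19 for epithelial and 0.22 for macrophage markers. Endothelial markers had lower estimates for 10 of 11 genes, with a median of -0.13 and 2 genes lower at that threshold, and the 5 mesothelial markers had a median of 0.12 and none. Like the members, the smooth muscle and macrophage markers were highest in Zip10 cKO library 1. As means of centred log2 CPM, smooth muscle markers stood at 0.24 in control library 3, above 0.23 and 0.15 in Zip10 cKO libraries 2 and 3. Macrophage markers stood at -0.18 in Zip10 cKO library 2, below -0.13 in control library 3. The 47 members stood at 0.12 and -0.01 in Zip10 cKO libraries 2 and 3, above -0.05 in control library 3. The part of smooth muscle, epithelial and macrophage content in the members' differences was not tested.

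The estimates also moved with gene length. Split into 5 equal groups by length, all genes tested had a median log2 fold change of -0.11 in the shortest and 0.11 in the longest group, and 20 of the 47 members were in the longest. The median length was 3610 bases for the members and 2415 bases for all genes tested. With the trend of each library on length removed, the medians were 0.34 for interstitial, 0.14 for elastic fibre and 0.16 for basement membrane members.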

How the data were processed

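Poly(A) RNA of mouse uterus was made into randomly primed, fragmented and adaptor-ligated libraries, per the labels' protocols, and 3 Zip10 cKO and 3 control libraries were grouped by their titles. Per the submitters' processing notes, RSEM 1.3.3, STAR 2.7.10a and fastp 0.23.2 were used, with edgeR 3.38.4 in R 4.2.1, on the build GRCm39 (mm39). Which annotation and which strand setting were used is not given in the sources used here, so reads of overlapping genes on opposite strands may have been assigned to either. The authors deposited, per the file headers, RSEM expected counts, in which reads shared between genes are split, together with TPM and gene lengths. The deposited TPM keep no depth.

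Expected counts were rounded to whole numbers (8.9% were not whole). Genes were kept by filterByExpr (minimum count 10, minimum total 15), scaled by TMM and compared by the quasi-likelihood test of edgeR 4.0.16 (robust, two-sided; R 4.3.3). The p-values of all 16737 tested genes were adjusted together by Benjamini-Hochberg, and 0.05 was the threshold. The SE of a log2 fold change comes from the F statistic, and an SD covers 3 libraries. Levels between genes are compared in TPM only. Symbols came from GENCODE M21 and matched 52073 of 56748 gene IDs (91.8%); promoter windows came from RefSeq on GRCm38.p6, another build than that of the tables, so no coordinates of the tables are given.

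The members and lists were chosen with earlier results of these data known. Values in every library are given for 22 members: within each family the one highest in TPM and the one with the smallest p, and every member at an unadjusted p under 0.05. The other 25 are given by range, and up to 3 genes with the smallest p come from each list. A further list of genes is not reported here. Alternatives were DESeq2 1.42.0, limma-voom and limma-trend on TPM (limma 3.58.1, pseudocounts 1 and 0.1), edgeR's likelihood ratio test, other scalings and filters, omitting mitochondrial and the 20 most abundant genes, removing a trend on gene length (loess, span 0.5), a replicate block and leaving out each library. The scripts were tested on simulated data. Pairs of libraries of a group differed by more than sampling noise (chi-square over its degrees of freedom 19.6 or more), and all 6 were kept as separate samples. Figures were drawn with matplotlib 3.10.9.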

Additional observations from a re-analysis of the deposited data

How the results depend on the processing

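With 0 genes called by the quasi-likelihood test, DESeq2 called 38 genes (30 higher and 8 lower in Zip10 cKO), edgeR's likelihood ratio test 30 (25 higher, 5 lower) and the quasi-likelihood test with no filter on low counts 15 (12 higher, 3 lower), while limma-voom called 0. With each library left out in turn it called 0 to 2, the members at an unadjusted p under 0.05 numbered 9 to 22 in place of 14, and the members whose groups did not overlap numbered 13 to 26 in place of 13. The median log2 fold change of the elastic fibre members then ranged from 0.055 to 0.313. The class contrasts with a library left out were chosen after seeing the data.

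Of 892 values of single members under 19 alternatives, 859 kept their direction and stayed uncalled, 4 kept it and passed the threshold, and 29 turned round; 34 members turned round under none. The 4 were Hmcn2 with DESeq2, the likelihood ratio test and no filter on low counts, and Tnxb with DESeq2. On log2(TPM + 1), Mfap4 had 0.0161, Fbln5 0.00299 and Hmcn1 -0.195, and on log2(TPM + 0.1) they had 0.0162, 0.00301 and -0.267. With the length trend removed, Ltbp4 had -0.0415, Loxl1 -0.0123, Lama1 -0.0283 and Nid1 -0.0502. With each library left out in turn, log2 fold changes of either sign were seen for Fmod (-0.00165 to 0.326), Mfap4 (-0.187 to 0.0352), Hmcn1 (-0.0965 to 0.372), Mfap2 (-0.16 to 0.21), Fbln5 (-0.145 to 0.0598), Loxl1 (-0.0497 to 0.147), Agrn (-0.137 to 0.0756), Ltbp4 (-0.0879 to 0.0863), Thbs3 (-0.0782 to 0.0886), Efemp2 (-0.0339 to 0.317) and Nid2 (-0.0038 to 0.29). All had absolute log2 fold changes of at most 0.18 with 6 libraries. The cause was not tested, apart from the fewer samples of a left-out library. Sparc is one of the 20 most abundant genes and has no value where these are left out.

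The labels give both groups the numbers 1 to 3. Over all genes, the deviations of same-numbered libraries correlated at 0.09, 0.25 and 0.19, and those of the other pairs at -0.33 to 0.12. The 0.12 was that of Zip10 cKO library 1 with control library 3. The same-numbered values were all positive, but such correlations cannot decide whether the samples are paired. The numbers are not taken to pair the samples, since the labels do not state it. With the replicate number as a block, 10 members were at an unadjusted p under 0.05, all 10 higher, against 5.33% of all genes tested that were higher, and 0 genes were called; the median log2 fold changes were 0.42 for interstitial, 0.20 for elastic fibre and 0.25 for basement membrane members.

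At 3 libraries a group, the 95% intervals of 8 members included a log2 fold change of 1, and those of Tnc, Ltbp2 and Lama4 also included 0. Lama1 and Ltbp2, with as few as 26 and 27 counts in a library, were limited by counting error as well.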
